A study of Homo sapiens with 2 samples.

Results

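The clustered protocadherins are 54 genes that lie in 3 neighboring groups on the long arm of human chromosome 5, with 16 genes in the alpha cluster, 16 in the beta cluster and 22 in the gamma cluster. The members were taken by gene symbol from a table of 61541 genes. The family was chosen by measured values of these same libraries, because an earlier account of them counted cadherin genes as higher after BRF2 knockdown. The difference between the libraries is therefore given as a description, with no test.

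RNA-seq was performed on Huh7, a human hepatocellular carcinoma cell line. Huh7-NC received a negative control siRNA and Huh7-si received siRNA against BRF2, a subunit of the transcription factor that brings RNA polymerase III to genes with an upstream promoter, such as U6. There was 1 library per condition, total RNA was extracted, and which of the siRNAs was used is not given in the sources used here. No value below has a replicate check, and a difference between the libraries cannot be told apart from a difference between their cultures or preparations.

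Clustered protocadherins are cell surface adhesion proteins of the cadherin superfamily, best known from neurons, where each cell switches on its own combination of members and the proteins recognize the same combination on a neighboring cell. Each alpha and gamma member has its own promoter and 1 large variable exon, which encodes the extracellular cadherin repeats and the membrane span, and is spliced to constant exons that all members of the cluster share. Beta members carry their whole coding sequence in 1 exon and have no constant exons. Promoter choice involves CTCF and cohesin, which loop promoters to distant enhancers, and DNA methylation and SMCHD1, which keep unused promoters silent.

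The table held 22852648 reads on genes in Huh7-NC against 22089016 in Huh7-si. In CPM (a gene's reads scaled to the library's total), a count of 0 allows up to 3 reads, or 0.131 CPM for Huh7-NC and 0.136 for Huh7-si. BRF2, the siRNA target, had 1280.52 estimated reads in Huh7-NC against 363.72 in Huh7-si, which was 70.6% lower in CPM (log2 fold change -1.77, 95% interval -1.94 to -1.60). Of 9 hepatocyte markers, all had reads in both libraries, with ALB at 126940 and 113860 reads. At least 2-fold higher was 1, APOB (log2 fold change 1.04), and 0 were at least 2-fold lower. APOA1 fell most, from 15460 to 8417 reads (-0.83, -0.87 to -0.79), and the median of the list was -0.06. The labelled hepatic origin therefore had its markers in both libraries. Intervals here and below are Clopper-Pearson intervals of the split of reads and cover counting error only.

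The 54 members lay on the plus strand of chr5:140786136-141512981 (GRCh38, GENCODE release 29), an interval of 726.8 kb. The shared part of each transcript starts with a 59-base constant exon, at chr5:140978949-140979007 for 15 alpha members and at chr5:141494807-141494865 for the 22 gamma members. The junctions of the 3 members with the most reads in each of these clusters are shown because they show where reads stop being specific to a member. Each runs from 5′ to 3′, with the last 15 bases of the variable exon in lower case and the first 15 bases of the constant exon in capitals.
PCDHA4: gaatcctttgcaaagCCACGACAGCCCAAC
PCDHA2: gaatacgtaggaaagCCACGACAGCCCAAC
PCDHA6: gatcatgatgccaaaCCACGACAGCCCAAC
PCDHGB5: tcccatcctgagttgCAAGCCCCGCCCAAC
PCDHGC3: gcccctcccggacagCAAGCCCCGCCCAAC
PCDHGA10: accccattggttccaCAAGCCCCGCCCAAC
The part in capitals was the same letter for letter within a cluster, so a read that lies wholly to its right does not name its member. The variable parts end at chr5:140809572 for PCDHA4 and at chr5:141400524 for PCDHGB5.

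The promoters of the same members, with the beta member of most reads and PCDHGA5 and PCDHGA6, which were added after their values were seen, are shown for the short element that the promoters of a cluster share. RefSeq windows from 250 bases before to 50 after the start (GRCh38.p14) were found for 13 alpha, 14 beta and 20 gamma members. The letters searched were GATGTCGCT for alpha, GGTGGCGCT for beta and GNGNCGCTG for gamma, each on both strands, and all 3 hold the letters CGCT, here in capitals.
PCDHA4: gccacatgatgtCGCTctttac
PCDHA2: gccacatgatgtCGCTgtccac
PCDHA6: gccgcatgatgtCGCTgtctac
PCDHB5: gacgcctggtggCGCTgcaggc
PCDHGB5: gactctgggcgcCGCTgttggc
PCDHGC3: gactctgtgtgcCGCTgtcggc
PCDHGA10: gactctgagcgcCGCTgttcac
PCDHGA5: gactctgagtgtCGCTgttgac
PCDHGA6: gactctaagcgtCGCTgttgac
These windows lie on the plus strand, for example at chr5:140806983-140807004 for PCDHA4, chr5:141135183-141135204 for PCDHB5 and chr5:141397867-141397888 for PCDHGB5. The alpha letters were found in 9 of 13 alpha promoters and in 0.113% of 27326 human promoters of the same length, and the beta letters in 13 of 14 beta promoters and 0.523% of all. The gamma letters, which are looser, were found in 18 of 20 gamma promoters, in 12 of 14 beta promoters and in 9.93% of all promoters, and CGCT alone in 68.8%. A match is a description of the letters only. Of the 9 alpha members with the letters, PCDHA2, PCDHA4, PCDHA6, PCDHA7 and PCDHA8 had at least 10 reads over both libraries, and PCDHA1, PCDHA5, PCDHA10 and PCDHA12 did not. The 4 alpha members with a window but without the letters, PCDHA9, PCDHA11, PCDHAC1 and PCDHAC2, had at most 3.06 reads in either library. PCDHA3, with 23.50 and 32.62 reads, had no window. The windows of PCDHA9 and PCDHA11 begin at chr5:140848132 and chr5:140868707, past their GENCODE gene starts (140847463 and 140868183). Whether the letters lie before those starts was not tested, and no relation of letters to reads is drawn.

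Protocadherin reads were found in both libraries and in every cluster. Of the 54 members, 51 had reads, 44 of them in Huh7-NC against 51 in Huh7-si. PCDHA1, PCDHAC2 and PCDHB1 had none in either library. A total of 41 members had at least 10 reads over both libraries, of which 6 were alpha, 15 beta and 20 gamma. The other 13 had at most 7.44 reads in any 1 library, and 7 members had reads in Huh7-si alone: PCDHA5, PCDHA9, PCDHA10, PCDHA12, PCDHA14, PCDHAC1 and PCDHGA12. The most of these was 6.90 reads, for PCDHA5, and no fold is given for any of the 7. In TPM, which is scaled for gene length, 17 members reached 1 in Huh7-NC against 22 in Huh7-si.

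**Figure D1:**
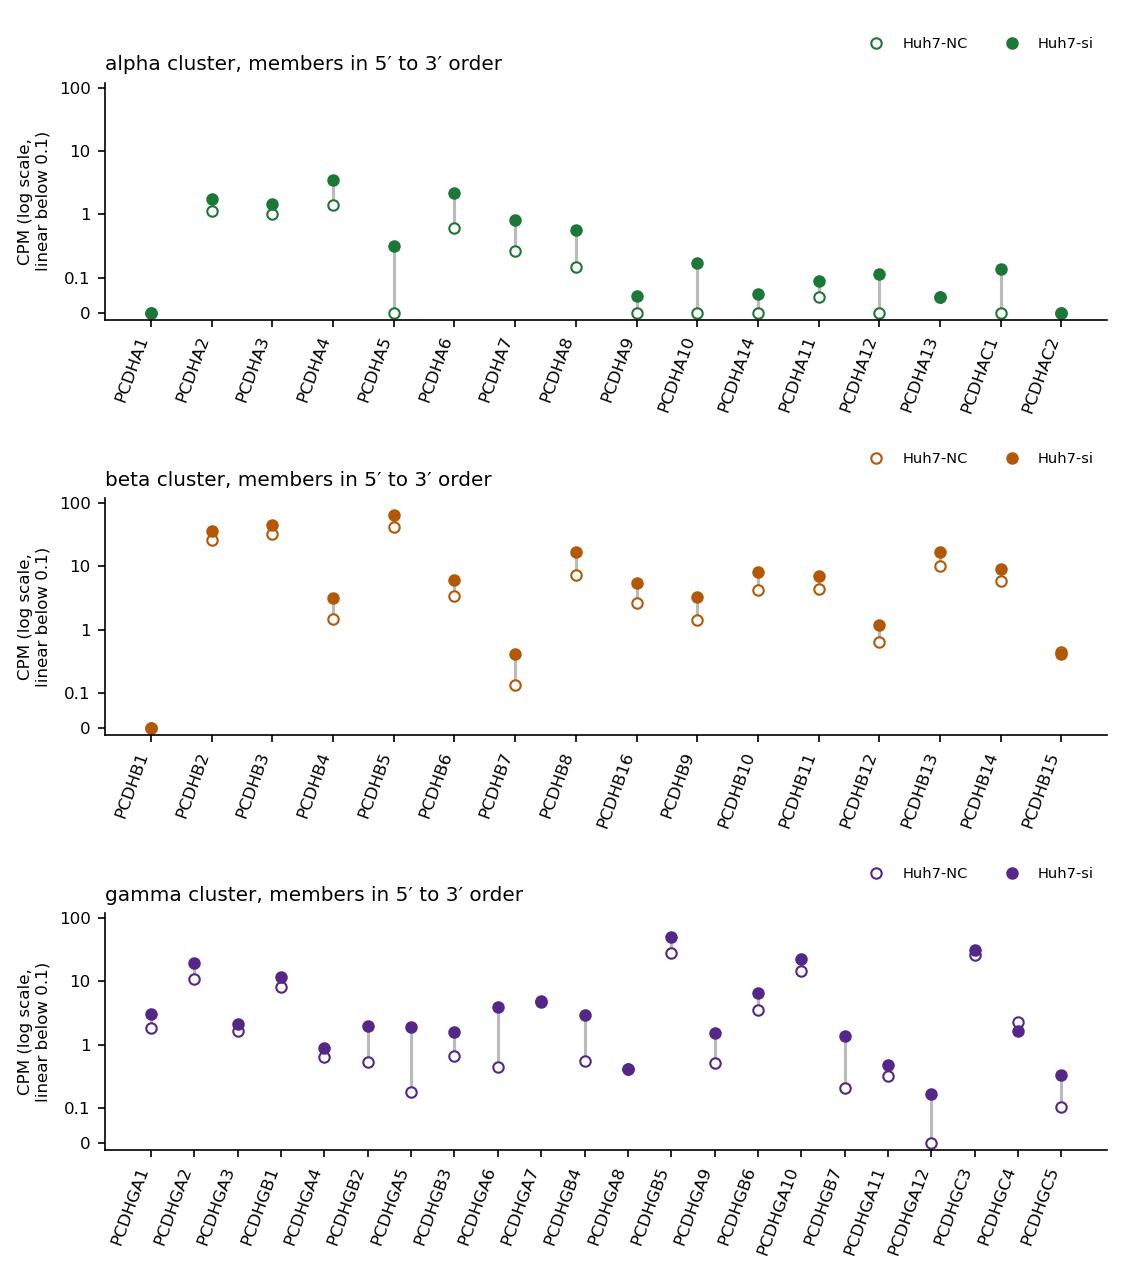
CPM of each of the 54 members in Huh7-NC (open points) and Huh7-si (filled points), in 5′ to 3′ order within the alpha, beta and gamma clusters, on a log axis that is linear below 0.1 CPM. PCDHB5 is the highest member, at 42.4 (Huh7-NC) and 64.3 CPM (Huh7-si), and most filled points sit above the open point of the same member.

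The cluster totals, in which reads shared out among members of the same cluster stay together, were all higher in Huh7-si. The alpha total was 107.01 reads in Huh7-NC against 248.02 in Huh7-si (4.68 and 11.2 CPM), a log2 fold change of 1.26 (95% interval 0.93 to 1.60). The beta total went from 3252.77 to 4936.27 reads (142 and 223 CPM), a log2 fold change of 0.65 (0.59 to 0.71). The gamma total was 2435.03 reads in Huh7-NC against 3795.84 in Huh7-si (107 and 172 CPM), a log2 fold change of 0.69 (0.62 to 0.76). The alpha interval lay above those of the beta and gamma totals, which overlapped. Over all members the total went from 5794.81 to 8980.13 reads, or 1.60-fold in CPM. When the libraries were scaled by TMM, which moves every log2 fold change by -0.22, the totals were 1.04 for alpha, 0.43 for beta and 0.46 for gamma.

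Of the 41 members with at least 10 reads, 16 were at least 2-fold higher in Huh7-si and 0 were at least 2-fold lower. Among all 17921 genes with that many reads, 14.8% were at least 2-fold higher and 1.72% were at least 2-fold lower, and among protein-coding genes of 3000 bases or more, 12.5% were higher. The log2 fold change was above 0 for 38 of the 41 and below 0 for PCDHGC4, PCDHB15 and PCDHGA8. Among all genes with at least 10 reads 64.8% were above 0, and among the long protein-coding genes 79.4%. With TMM scaling the members' value was above 0 for 37 and below 0 for 4, and 11 were at least 2-fold higher. The counting interval lay above 0 for 30 members and included 0 for 11, and only 4 of the 16 had an interval wholly above 2-fold. The shares of all genes with TMM scaling, and with an interval above 0, were not computed. The median over the 41 was 0.85, beside 0.21 over all genes and 0.35 over long protein-coding genes. Because 7 of the 41 had under 10 reads in Huh7-NC and 5 of those 7 are among the 16, part of this count was fixed by the filter, and nothing about the family is read from it.

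**Figure D2:**
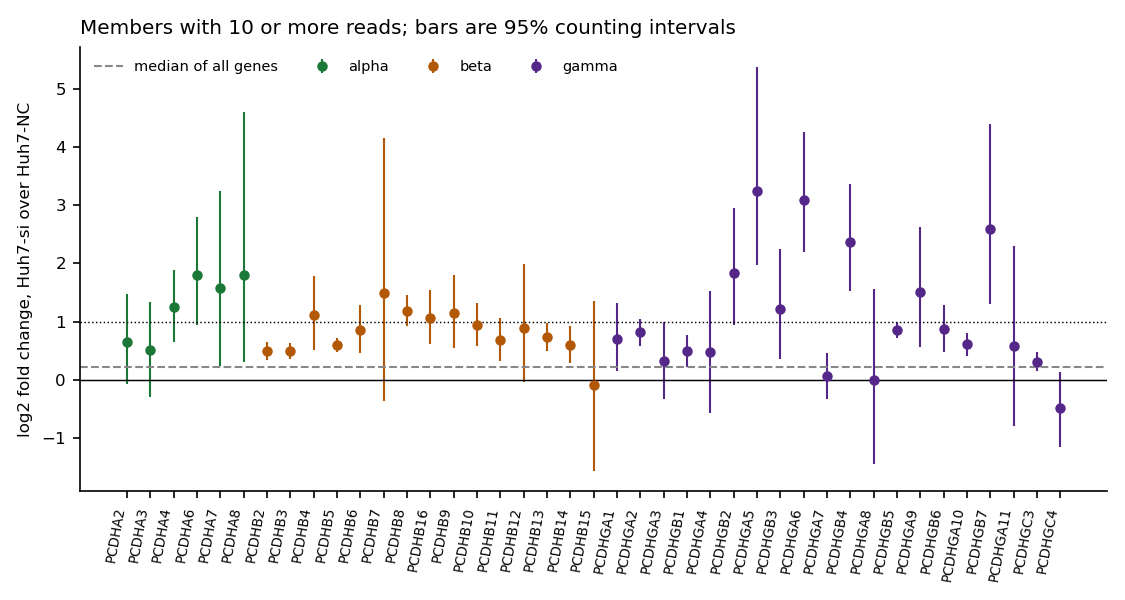
Log2 fold change (Huh7-si over Huh7-NC, in CPM) of the 41 members with at least 10 reads, in chromosomal order and colored by cluster, with bars for the 95% counting interval. The dashed line is the median of all genes, 0.21, and the dotted line marks 2-fold. The bars are short for the high beta and gamma members and long for the low ones, such as PCDHB7 and PCDHA8.

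The members were also set beside genes of like read number, where the level is the sum over both libraries and so includes the reads that make a member higher. With 10 to 49 reads over both libraries, 6 of 11 members were at least 2-fold higher (median log2 fold change 1.5), beside 37.2% of all genes in that range. Of those 6, PCDHA7, PCDHA8, PCDHB7, PCDHGA5 and PCDHGB7 had under 10 reads in Huh7-NC, and no trend with level is read from these counts. With 50 to 199 reads it was 9 of 14 members (median 1.13) beside 23.2% of genes. With 200 reads or more it was 1 of 16 members, PCDHB8 (median 0.65), beside 5.91% of genes. The medians of all genes in the 3 ranges were 0.62, 0.42 and 0.11. Among the 16 members with the most reads, log2 fold changes ran from 0.06 for PCDHGA7 to 1.19 for PCDHB8.

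**Figure D3:**
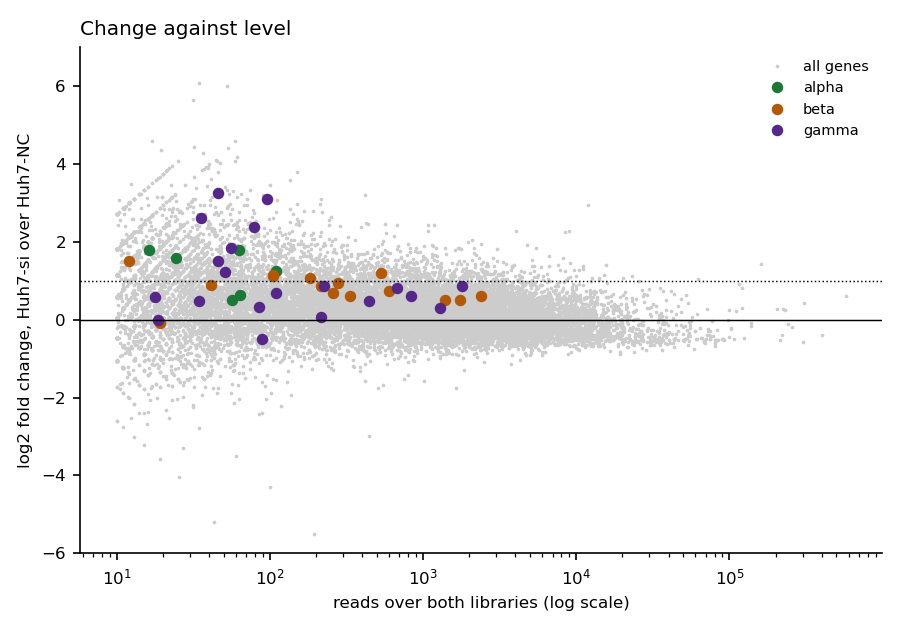
Log2 fold change against reads over both libraries (log scale) for the 41 members, colored by cluster, over the 17782 genes with at least 10 reads and reads in both libraries (grey). The members above a log2 fold change of 2 all have under 100 reads, and the 16 members with 200 reads or more sit between 0.06 and 1.19.

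In the alpha cluster, 6 members had at least 10 reads, all of them from the 5′ part of the cluster. PCDHA4 had the most, with 32.60 reads in Huh7-NC against 76.06 in Huh7-si (log2 fold change 1.26, 0.65 to 1.89). PCDHA6 had 14 and 48.25 reads (1.80, 0.94 to 2.80), PCDHA2 25.49 and 38.63 (0.64) and PCDHA3 23.50 and 32.62 (0.51). The 2-fold threshold was passed by PCDHA4, PCDHA6, PCDHA7 (6 and 18.33 reads) and PCDHA8 (3.42 and 12.66 reads). PCDHA7 and PCDHA8 had under 10 reads in Huh7-NC and passed the filter only with the reads of Huh7-si. The intervals of PCDHA2 and PCDHA3 included 0. PCDHA4, PCDHA2 and PCDHA6 together held 67.3% (57.5 to 76.0) of the alpha reads in Huh7-NC against 65.7% (59.5 to 71.6) in Huh7-si. Within the cluster the share of PCDHA2 was 23.8% (15.7 to 32.5) in Huh7-NC against 15.6% (11.4 to 20.9) in Huh7-si, that of PCDHA3 21.96% (14.9 to 31.5) against 13.2% (9.34 to 18.2), and that of PCDHA6 13.1% (7.34 to 21.0) against 19.5% (14.6 to 24.8). The intervals of each overlapped. PCDHAC1 and PCDHAC2, the C-type members nearest to the constant exons, had 3.06 reads in Huh7-si and 0 in Huh7-NC, all from PCDHAC1.

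The beta cluster held the most reads. PCDHB5 led with 969.30 reads in Huh7-NC against 1420.58 in Huh7-si (19.67 and 32.18 TPM), a log2 fold change of 0.60 (0.48 to 0.72). PCDHB3 had 735.12 and 1001.09 reads (0.49) and PCDHB2 had 587.33 and 799.44 (0.49). These 3 members made up 70.5% (68.9 to 72.0) of the beta reads in Huh7-NC against 65.3% (63.9 to 66.6) in Huh7-si, intervals that did not overlap. The intervals cover counting error only, and whether the shares differ was not tested. The beta members past 2-fold were PCDHB4, PCDHB7, PCDHB8, PCDHB9 and PCDHB16. Of these, PCDHB8 had the most reads, 166.57 and 367.41 (1.19, 0.92 to 1.46), and PCDHB7 the fewest, 3.01 and 9.07, with an interval that included 0. PCDHB16 went from 60.35 to 122.18 reads (1.06) and PCDHB9 from 32.88 to 70.96 (1.15). PCDHB15, at the 3′ end of the cluster, had 10.06 and 9.04 reads.

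In the gamma cluster the A and B members, which alternate along the chromosome, are given apart from the C members at the 3′ end. The 12 gamma A members summed to 829.86 reads in Huh7-NC against 1343.14 in Huh7-si (log2 fold change 0.74, 0.62 to 0.87). The 7 gamma B members summed to 962.31 and 1705.97 reads (0.88, 0.76 to 0.99). The 3 gamma C members summed to 642.86 and 746.73 reads (0.27, 0.11 to 0.42), an interval below those of the A and B members, and 0.04 under TMM scaling. The A, B and C members share the same constant exons, so only the gamma total is free of reads passed between these sums. How many reads were passed was not tested. PCDHGC3, which is expressed widely outside the nervous system, made up most of the C reads with 587.97 and 703.20 (0.31, 0.15 to 0.47). PCDHGC4 had 52.54 and 36.09 reads (-0.49, -1.16 to 0.13), an interval that included 0, and PCDHGC5 had 2.35 and 7.44.

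The gamma A and B members with the most reads were less than 2-fold higher. PCDHGB5 had 648.18 reads in Huh7-NC against 1132.10 in Huh7-si (0.85), PCDHGA10 334.94 and 492.72 (0.61) and PCDHGA2 249.84 and 424.86 (0.81). As a share of gamma reads, PCDHGB5 went from 26.6% (24.9 to 28.4) to 29.8% (28.4 to 31.3), while PCDHGC3 went from 24.1% (22.5 to 25.9) to 18.5% (17.3 to 19.8). In TPM, PCDHGC3 was above PCDHGB5 in Huh7-NC (10.99 and 7.95) and below it in Huh7-si (13.75 and 17.69). In reads PCDHGB5 was above PCDHGC3 in both libraries, so the order in TPM also depends on the transcript lengths given below.

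The members with the largest fold changes were low gamma A and B members. PCDHGA5 had 4.12 reads in Huh7-NC against 41.87 in Huh7-si (3.25, 1.98 to 5.38). PCDHGA6 had 10.01 and 86.09 reads (3.09, 2.21 to 4.26). PCDHGB7 had 4.79 and 30.51 (2.60, 1.31 to 4.40) and PCDHGB4 had 12.76 and 66.10 (2.38, 1.52 to 3.38). These 4 are the members whose whole interval lay above 2-fold. Of them, PCDHGA5 and PCDHGB7 had under 10 reads in Huh7-NC and passed the filter only with the reads of Huh7-si. Nothing is read from the intervals of these PCDHGA5 and PCDHGB7 counts. PCDHGB2 (12.26 and 43.29 reads, 1.83), PCDHGA9 (11.85 and 33.57, 1.51) and PCDHGB3 (15.39 and 35.38, 1.22) also passed 2-fold. Along the chromosome PCDHGB2, PCDHGA5, PCDHGB3, PCDHGA6 and PCDHGB4 follow each other with PCDHGA7 between the last 2 of them, and this run was noticed after the values were seen. PCDHGA7 itself had 107.36 and 107.98 reads (0.06, -0.34 to 0.46) and PCDHGA8, next to PCDHGB4, had 9.42 and 9 reads. PCDHGB4 and PCDHGA8 each share more exonic bases than the other gamma members, as given below, so their counts may not be separate.

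How far a member's count is its own depends on the exons it shares. By the annotation, the bases of a member's exons that another gene on the same strand also covers made up 21.3% to 100% in alpha (median 46.6%), 27.6% to 64.4% in gamma (median 43.9%) and 0% to 9.43% in beta. The 100% is PCDHA14, a pseudogene that lies wholly within exons of a neighbor. The 64.4% is PCDHGB4, which has 4447 shared bases, as has PCDHGA8 next to it (51.3%), against 2181 for the other gamma members. Whether reads were passed between PCDHGB4 and PCDHGA8 was not tested. Windows of 50 bases were taken from the variable exon, or for beta from the first exon of the longest transcript. A median of 9.91% of them in alpha, 13.7% in beta and 6.15% in gamma occurred in the same part of another member. The highest share in beta was 45.7% for PCDHB8, whose closest match was PCDHB13, and in gamma 20.4% for PCDHGB4 and PCDHGB5, which match each other. Of the 51 members with reads, 49 had counts that were not whole numbers, so the authors' counting had shared out reads between genes for nearly every member. Counts of single members, PCDHB8 and PCDHGB4 included, are therefore uncertain by an amount that was not tested, while reads passed between members of a cluster leave its total unchanged.

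The count and the TPM of a gene together give the transcript length that the authors' software worked with, here scaled to beta members with a single transcript. For 13 beta members in Huh7-si it ran from 2057 to 5201 bases. Some lay near their listed length, such as PCDHB13 (5200 bases in Huh7-NC and 5201 in Huh7-si against 5061). Others lay below it, such as PCDHB16 (1800 and 2247 against 3840) and PCDHB4 (3110 and 2057 against 3806). For 15 gamma members in Huh7-si the median was 4710 bases, near the listed gene lengths, as for PCDHGA10 (4900 bases against 4802) and PCDHGB5 (4130 against 4755). The reads of most of these gamma members were thus assigned to transcripts of about full length. PCDHGC4 stood apart, at 848 bases in Huh7-NC against 759 in Huh7-si against a listed 4763. The annotation holds PCDHGC4 transcripts of 581, 812, 2793 and 4623 bases, of which 0%, 86.0%, 0% and 47.2% are covered by other members. PCDHGC3 was at 2937 and 3301 bases against 4758, and PCDHA4 at 3139 and 3385 against 5374. Among the PCDHGC3 transcripts of the annotation are 1 of 2346 bases, 92.9% covered by other members, and 1 of 2849 bases, 0% covered. Whether the reads listed for PCDHGC4 and PCDHGC3 come from those genes was not tested.

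**Figure D4:**
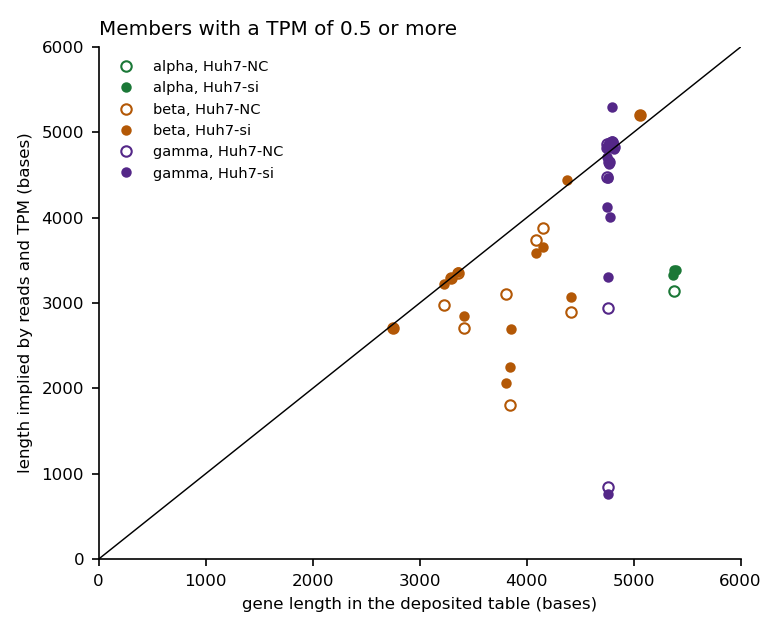
Transcript length implied by reads and TPM (bases) against the gene length in the deposited table (bases) for members with at least 0.5 TPM, in Huh7-NC (open) and Huh7-si (filled); the line marks equal lengths. Most gamma members lie near the line, and PCDHGC4 lies far below, at 848 and 759 bases. PCDHGC3, the alpha members and some beta members, such as PCDHB4 and PCDHB16, lie below it.

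Gene length also went with the change over the whole table: the median log2 fold change in 20 bins of gene length ran from 0.18 to 0.42 over the bins that hold the 41 members with at least 10 reads. After the median of genes of like length was taken from each member, 35 of the 41 remained above 0, 11 were still at least 2-fold above it, and the median was 0.47. Neither PCDHGC3 nor PCDHGC4 was above genes of like length. All 7 gamma B members and all 6 alpha members with at least 10 reads were above them. Of these, PCDHA7, PCDHA8 and PCDHGB7 had under 10 reads in Huh7-NC and passed the filter only with those of Huh7-si. The bins of length are not matched for read number, and the same counts over all genes were not computed. Nothing about the family is read from these counts.

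The surroundings of the clusters were compared next. Within the interval and 500 kb on either side, 28 other protein-coding genes had at least 10 reads, of which 4 were at least 2-fold higher and 0 lower, with a median log2 fold change of 0.13. The 4 were HBEGF, ANKHD1, PCDH12 and DND1, the last with 0 reads in Huh7-NC against 17.01 in Huh7-si. Among all genes with at least 10 reads, 14.8% were at least 2-fold higher and 1.72% at least 2-fold lower. FCHSD1, with 261.19 and 504.98 reads, was just under 2-fold with 0.5 reads added (log2 fold change 0.999) and just over it without. TAF7, a subunit of the general transcription factor TFIID whose gene lies between the beta and gamma clusters, had 2394 and 2085 reads (-0.15, -0.24 to -0.07). DIAPH1, just past the gamma cluster, had 4333 and 4644 reads (0.15). Of these neighbors, 10 were 3000 bases or longer, and their median was 0.57.

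**Figure D5:**
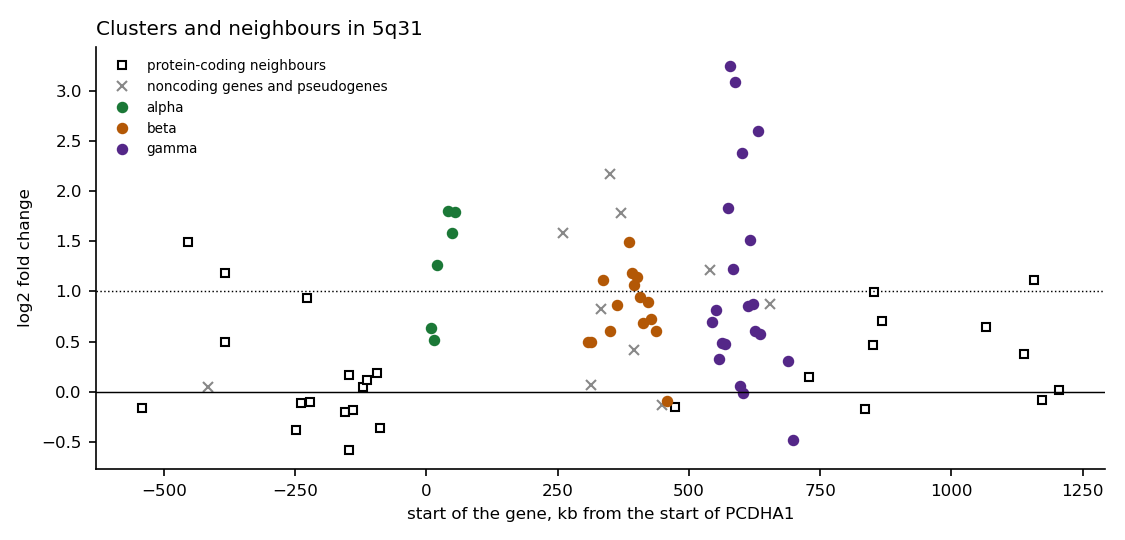
Log2 fold change (Huh7-si over Huh7-NC) of members (filled, colored by cluster) and of other genes within 500 kb with at least 10 reads and reads in both libraries, against the distance of the gene's start from that of PCDHA1 (kb). TAF7, between the beta and gamma clusters, sits at -0.15, while the gamma members span -0.49 to 3.25.

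Genes that act on the clusters, or on or with their proteins, are given as lists. Apart from CYFIP2 and RET, those listed here had 200 reads or more over both libraries. With that many reads, 5.91% of all genes were at least 2-fold higher. At least 2-fold lower were 1.72% of all genes with at least 10 reads. Nothing about the listed genes is read from the counts of 0 that follow. Of 12 genes for CTCF, cohesin and its loaders and releasers, 0 were at least 2-fold higher or lower (median log2 fold change 0.37). CTCF had 2427 and 2544.66 reads (0.12, 0.04 to 0.20), and NIPBL, the cohesin loader, had the largest change at 0.85 (0.76 to 0.94). Of 14 genes for DNA methylation and heterochromatin, 0 passed 2-fold (median 0.20). SMCHD1, which is needed to silence clustered protocadherin promoters, had 1317.15 and 2291.01 reads (0.85, 0.75 to 0.95), the largest change of that list. Of 8 genes for ADAM10, ADAM17 and gamma-secretase, the proteases that cut protocadherins at the membrane, 0 passed 2-fold, and ADAM17 changed most (0.78). Of 16 genes listed for signaling partners, 15 had reads, and the receptor tyrosine kinase RET was at 0. Of these partners, which include the kinases PTK2 and PTK2B and the WAVE complex, 0 passed 2-fold, and PTK2B changed most (0.64).

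Protocadherins outside the clusters, which are separate genes and share no constant exons with the members, are given side by side. PCDH1 and PCDH12 lie within 500 kb of the gamma cluster and are also counted among the neighbors above. Of 12 such genes, 8 had at least 10 reads, with a median log2 fold change of 0.98, and 4 were at least 2-fold higher, beside the 14.8% of all genes given above. PCDH17 had 210 reads in Huh7-NC against 516 in Huh7-si (1.34, 1.11 to 1.58) and PCDH9 had 28 and 84.28 (1.62). PCDH11X had 0.74 and 9.59 reads and PCDH12 had 5 and 11, so both reached 10 reads only with those of Huh7-si, and the interval of PCDH12 included 0 (-0.46 to 3.06). PCDH10 was lower, with 10 and 7 reads. Whether these genes and the members differ was not tested.

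Because these proteins are best known from neurons, markers of other cell types were set beside the members. Of 10 neuronal markers, 5 had reads, while DCX, STMN2, NEFL, NEFM and ELAVL4 were at 0 in both libraries. RBFOX3 had 1 read in Huh7-si and 0 in Huh7-NC, and ELAVL3 had 1 read in Huh7-NC and 0 in Huh7-si. SYT1, SNAP25 and SYP, which belong to the machinery of vesicle release, had log2 fold changes of 0.88, 0.58 and 0.79, and the list summed to 6.75 TPM in Huh7-NC and 12.55 TPM in Huh7-si. The 6 glial markers summed to 3.31 and 4.28 TPM, with 4 of them read. The 6 fibroblast markers summed to 6.43 and 10.54 TPM, with COL1A1 at 76 and 229 reads, COL3A1 at 19 and 44, and DCN and THY1 at 0. The 4 endothelial markers summed to 0.96 and 1.60 TPM and the 5 blood markers to 5.87 and 4.64 TPM. Both libraries are labelled as Huh7 cells, and the labels name no other cell type. Any part of other cells in the members' values was not tested, and more cells of a type cannot be told apart from more RNA per cell in a bulk library.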

How the data were processed

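RNA-seq of Huh7-NC and Huh7-si was analyzed, with 1 library each. The authors deposited 1 table with, for each gene and library, an estimated count of reads and a TPM value, and the gene length in bases. The estimated counts are partly fractional and not scaled to library size. The submitters' notes name TopHat2 2.0.12, Bowtie2 2.0.6 and GRCh37; the counting tool, annotation and strandedness are not given in the sources used here. The authors' own fold changes and p-values were not used. No other per-sample columns were left unused.

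CPM was computed on total counts, and log2 fold changes with 0.5 reads added. Genes with at least 10 reads over both libraries were compared; the threshold was a CPM ratio of 2 with these 0.5 reads added. The 95% Clopper-Pearson intervals used counts rounded to whole numbers. Of the 17921 genes, 139 were at 0 in 1 library. No p-value was computed, because 1 library per condition leaves no spread between replicates. The code was tested on simulated data.

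Positions and shared exons came from GENCODE release 29 (GRCh38), which holds 94.8% of the gene identifiers and all 54 members, and promoters from RefSeq (GRCh38.p14). These builds differ from the one in the submitters' notes, and no coordinates were taken from the deposited table. Length correction used 20 bins of gene length. The implied length is the ratio of count to TPM, for TPM of at least 0.5. Members with at least 10 reads could be named with counts. From other lists, genes past 2-fold were named, or the gene with the largest change where none passed; CTCF, the markers and genes of the surroundings were named besides. The members and lists were chosen with earlier results of these data known. Alternatives were TMM and median-of-ratios scaling, the TPM columns, a pseudocount of 5, minimums of 1 and 50 reads, a fold of 1.5 and, added after seeing the data, cluster totals without a leading member. Software was R 4.3.3 (edgeR 4.0.16 and DESeq2 1.42.0, for scaling factors alone) and Python 3.11.15 (SciPy 1.17.1, NumPy 2.4.6, matplotlib 3.10.9, pandas 2.3.3).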

Additional observations from a re-analysis of the deposited data

How the results depend on the processing

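With 1 library per condition, only the processing could be varied, and no replicate could be left out. No paired analysis was possible because each condition has 1 library. TMM and median-of-ratios scaling moved every log2 fold change by -0.22 and -0.21. The beta total, 0.65 as reported, was 0.43, 0.44 and 0.83 with TMM, median-of-ratios scaling and the deposited TPM. The gamma total, 0.69 as reported, was 0.46, 0.48 and 0.77 in the same order, and 0.79 without PCDHGC3. BRF2, -1.77 as reported, was -1.99, -1.97 and -1.59. The alpha total stayed within its counting interval, at 1.04, 1.05 and 1.45. Members at least 2-fold higher numbered 16 as reported, 11 with TMM, 12 with median-of-ratios scaling and 21 with TPM. They numbered 10 with a minimum of 50 reads, 29 at a fold of 1.5, 24 with a minimum of 1 read, and 15 with a pseudocount of 5. None was 2-fold lower under these settings, nor 1.5-fold lower at that fold. The 4 protocadherins outside the clusters became 2 with a minimum of 50 reads, 3 with TMM and 6 with TPM. The 14.8% of all genes given above holds for the main setting alone. The shares of all genes under the other settings were not computed, so these counts are not set beside the whole table. The members' median of 0.85 became 0.47 less genes of like length. Depth limits the alpha members most, since 10 of their 16 had under 10 reads over both libraries.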

Other observations

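Within the interval, 6 noncoding genes other than pseudogenes had at least 10 reads. Of these, 3 were at least 2-fold higher in Huh7-si and 0 lower. Among all genes with at least 10 reads, 14.8% were at least 2-fold higher and 1.72% at least 2-fold lower. The share higher was 37.2% of genes with 10 reads or more and under 50 over both libraries. It was 23.2% of genes with 50 reads or more and under 200. Nothing about the interval is read from the count of 3. AC244517.5 (ENSG00000279047), annotated as antisense and overlapping PCDHB2, had 46.99 reads in Huh7-NC against 137.42 in Huh7-si (log2 fold change 1.59, 95% counting interval 1.10 to 2.10). AC244517.11 (ENSG00000280029), antisense across much of the beta cluster, had 14.68 and 65.65 reads (2.17, 1.36 to 3.10), while its TPM went from 6.44 to 5.09. AC005618.1 (ENSG00000272070), a noncoding gene just before the gamma cluster, had 14 and 32 reads (1.21, 0.29 to 2.26). The other 3 were AC244517.2 (ENSG00000272154) with 22.17 and 22.5 reads (0.07), AC244517.6 (ENSG00000279068) with 77.85 and 100.26 (0.41) and AC244517.1 (ENSG00000272108) with 15 and 26 (0.82), all with intervals that included 0. Exons on the opposite strand overlap 8 alpha, 10 beta and 1 gamma members, and without a stated strand setting their reads cannot be told apart from those of the members. Of the pseudogenes, PCDHB17P had 4.02 and 14.53 reads, PCDHB18P 8.01 and 7.01 and PCDHGB9P 6 and 11.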
